A study of Mus musculus with 8 samples.

Results

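A group of 10 genes that build cell polarity was followed in the embryonic mouse ventricle: Pard3, Pard6a, Pard6b, Pard6g, Prkci and Prkcz of the Par complex, Crb2 of the Crumbs complex, Scrib and Dlg1 of the Scribble complex, and Vangl2 of the planar polarity pathway. They were chosen by symbol for their place in these complexes, by a rule that uses no measured value. Earlier results of these data were known when they were chosen. All 10 were found among the 53465 genes of the deposited table. Each of the 10 also passed the filter on low counts that left 15388 genes for testing. RNA had been taken from heart ventricles of mouse embryos at embryonic day 15.5 and sequenced as polyadenylated RNA. A group of 4 libraries is labelled WT and a group of 4 is labelled with the genotype Nrg-1flox;Cdh5-CreERT2. In the latter, a tamoxifen-inducible Cre recombinase driven by Cdh5 regulatory sequence, which is active in endothelial cells, is meant to delete floxed Nrg1. Other alleles carried by the WT embryos, the tamoxifen schedule and the number of embryos per library are not given in the sources used here, beyond the design note of a single ventricle per replicate.

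Apicobasal polarity gives a cell an upper and a lower face. PAR3 and PAR6 are scaffolds that bring atypical protein kinase C (aPKC) to the apical junctions, Crumbs proteins mark the apical membrane, and the Scribble, DLG and LGL proteins hold the basolateral side, with aPKC and the basolateral proteins acting against each other. Planar polarity runs along the sheet instead and depends on membrane proteins such as VANGL2. In the heart, aPKC and PAR proteins are known for oriented cell division in the myocardium and for epicardial development, and VANGL2 and Scribble for alignment of the outflow tract. Neuregulin-1, the growth factor encoded by Nrg1, signals from the endocardium to the myocardium and drives the formation of trabeculae.

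The libraries held 16761763 to 24144272 expected counts. In CPM, counts scaled to a common library size, Nrg1 itself ranged over 4.08 to 5.46 for WT and over 5.36 to 6.82 for the libraries labelled Nrg-1flox;Cdh5-CreERT2, so the targeted transcript was not lower in them (log2 fold change 0.34, adjusted p = 0.311 in edgeR's quasi-likelihood test). They are therefore called labelled-Flox libraries here. In 7 of the 8 libraries both Xist, which marks female cells, and the Y-linked genes exceeded 20 counts. RNA of both sexes in a library goes against a single ventricle per replicate as the design note gives it, so what each of the 4 libraries of a group stands for is not settled. Which exons of Nrg1 are floxed is not given in the sources used here, so the level of the whole gene is a limited check of the labels. Xist ranged from 0.176 to 206 CPM in WT and from 103 to 327 CPM in labelled-Flox libraries, and the summed Y-linked level from 69.3 to 171 and from 42.9 to 120 CPM. The means were 120 and 244 CPM for Xist and 119 and 72.4 CPM for the Y-linked sum. Sex-linked levels thus went partly with the label and cannot be fully told apart from it.

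None of the 10 polarity genes differed between the groups at a false discovery rate (FDR) of 0.05 by the same edgeR test, which called 0.526% of all tested genes. DESeq2, limma voom and edgeR's likelihood ratio test also called 0 of the 10. At an unadjusted p below 0.05 there was 1 of the 10, Scrib, against 10.5% of all tested genes. Scrib kept an unadjusted p below 0.05 in 15 of 20 alternative fits. It lost it with a correction for GC content and length, where its log2 fold change was 0.075 and Vangl2 was the only gene of the 10 below 0.05, and with the Y-linked covariate (0.098). It also lost it without WT library 4 (0.093), labelled-Flox library 1 (0.076) or labelled-Flox library 3 (0.092). The values of WT and labelled-Flox libraries overlapped for each of the 10, while they did not overlap for 6.05% of all tested genes. Of the 10, 7 were slightly higher and 3 slightly lower in labelled-Flox libraries, while 49.4% of all tested genes were higher. Their median log2 fold change was 0.04 and their median absolute log2 fold change 0.07, beside -0.0012 and 0.06 over all tested genes. Since ventricles hold many cell types, fewer cells of a type and less RNA per cell cannot be told apart in these values.

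**Figure D1:**
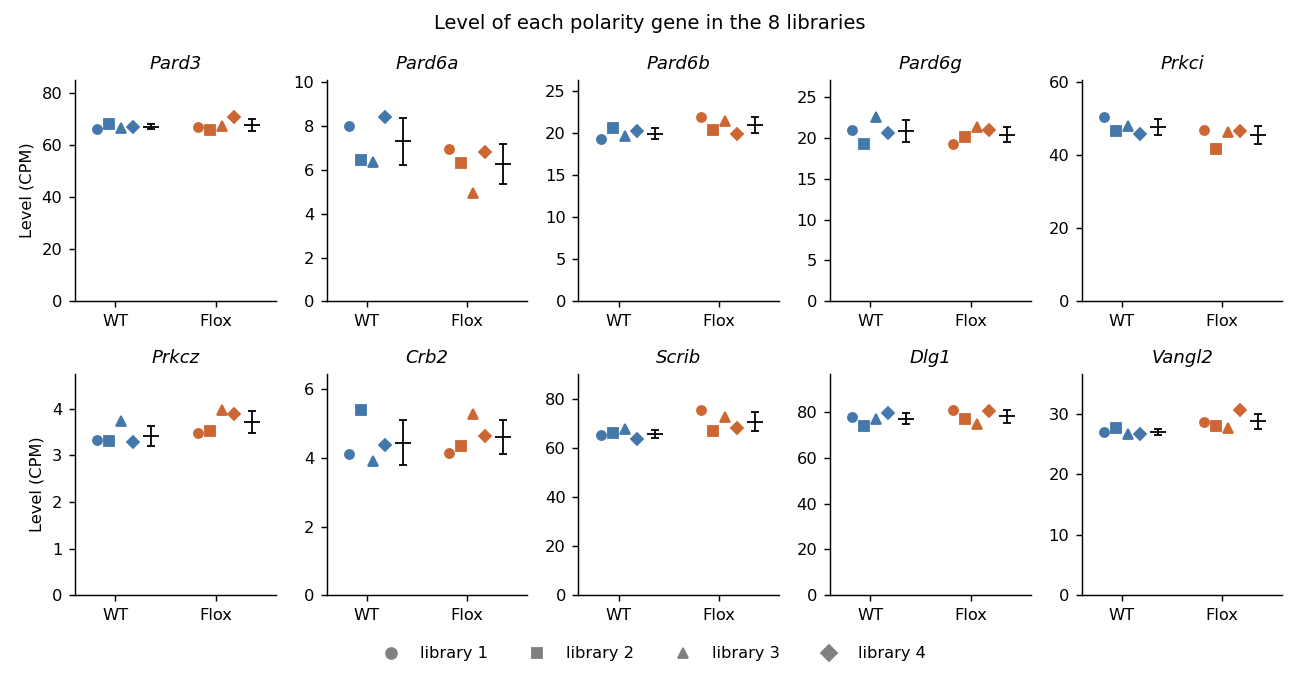
Level of each of the 10 polarity genes, in CPM, in 4 WT (blue) and 4 labelled-Flox (orange) libraries, with symbols for the library number and black bars for the mean and SD (n = 4). The groups overlap in every panel, from Dlg1 near 77.2 and 78.4 CPM down to Prkcz near 3.42 and 3.71 CPM.

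The Scribble complex is described first, since Scrib had the smallest p of the 10. Scrib (ENSMUSG00000022568, GRCm38 chromosome 15, 76047158 to 76069784, minus strand) encodes the large basolateral scaffold that names the complex. It gave 65.4, 66.0, 67.8 and 63.8 CPM in libraries 1 to 4 of the WT group, against 75.3, 66.8, 72.7 and 68.1 CPM in labelled-Flox libraries 1 to 4. Labelled-Flox libraries 1, 3 and 4 lay above all WT libraries, library 4 only just, whereas labelled-Flox library 2 lay within their range. EdgeR put the log2 fold change at 0.11 ± 0.0404 (SE), with 95% limits of 0.02 and 0.19 and an adjusted p = 0.365. That interval corresponds to a level between 1.25% and 14.3% higher, and it carries no correction for the number of genes tested. Dlg1 (ENSMUSG00000022770, chromosome 16, 31663443 to 31875129, plus strand) encodes a basolateral scaffold of the membrane-associated guanylate kinase family. It ranged from 74.1 to 79.8 CPM in WT and from 75.0 to 80.9 CPM in labelled-Flox libraries, nearly the same span. Its log2 fold change was 0.02 ± 0.0349 (SE), with 95% limits of -0.05 and 0.10. It was 0.0025 without WT library 2, 0.043 without labelled-Flox library 3 and 0.072 with the Y-linked covariate.

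Vangl2 (ENSMUSG00000026556, chromosome 1, 172000960 to 172028444, minus strand) encodes a multipass membrane protein of the planar polarity core. It gave 27.0, 27.8, 26.7 and 26.7 CPM in libraries 1 to 4 of the WT group, against 28.7, 28.1, 27.7 and 30.6 CPM in labelled-Flox libraries 1 to 4. The overlap was small, as labelled-Flox library 3 fell just below WT library 2 while the other 3 labelled-Flox libraries lay above all WT libraries. EdgeR put the log2 fold change at 0.09 ± 0.0448 (SE), with 95% limits of -0.01 and 0.19 and an adjusted p = 0.533.

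Of the Par complex, Pard3 (ENSMUSG00000025812, chromosome 8, 127063893 to 127612286, plus strand) encodes the junctional scaffold PAR3. It was the steadiest of the 10 in WT, at 66.3, 68.4, 66.6 and 67.2 CPM in libraries 1 to 4, a coefficient of variation of 1.4%. In labelled-Flox libraries 1 to 4 it was at 67.1, 65.9, 67.6 and 71.0 CPM, and only library 4 lay above the WT range. The log2 fold change of 0.02 (SE 0.0317) had a 95% confidence interval of -0.05 to 0.08, or a change of -3.6% to 6.03%.

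The PAR6 adaptors link CDC42 to aPKC. Pard6a (ENSMUSG00000005699, chromosome 8, 105701148 to 105703496, plus strand) gave 8.001, 6.45, 6.34 and 8.43 CPM in libraries 1 to 4 of the WT group, against 6.98, 6.33, 4.94 and 6.83 CPM in labelled-Flox libraries 1 to 4. WT libraries 1 and 4 were the highest and labelled-Flox library 3 the lowest, and the rest intermixed. This was the largest absolute difference among the 10, at -0.22 ± 0.132 (SE) on the log2 scale, with 95% limits of -0.51 and 0.06 and an adjusted p = 0.6 in edgeR. On the same scale it was -0.12 without labelled-Flox library 3, -0.15 without WT library 4 and -0.285 without WT library 3. Within every library number the labelled-Flox value lay below the WT value. With library number as a block, edgeR's test gave -0.22 (unadjusted p = 0.0518, adjusted p = 0.447), beside an unadjusted p of 0.115 in the main fit. When the Y-linked sum entered the fit as a covariate, Pard6a stood at -0.07 and Prkcz, at 0.15, differed the most of the 10. Pard6b (ENSMUSG00000044641, chromosome 2, 168081004 to 168101203, plus strand) ranged from 19.2 to 20.6 CPM in WT and from 19.9 to 21.9 CPM in labelled-Flox libraries. Pard6g (ENSMUSG00000056214, chromosome 18, 80046890 to 80119639, plus strand) ranged from 19.3 to 22.6 and from 19.3 to 21.3 CPM. Their log2 fold changes of 0.07 (SE 0.0524) and -0.03 (SE 0.0595) had 95% limits of -0.04 and 0.18 for Pard6b and of -0.16 and 0.10 for Pard6g.

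The aPKC genes differed widely in level. Prkci (ENSMUSG00000037643, chromosome 3, 30995747 to 31052959, plus strand), which encodes aPKC iota, gave 50.6, 46.6, 48.1 and 45.8 CPM in libraries 1 to 4 of the WT group, against 47.1, 41.8, 46.5 and 46.6 CPM in labelled-Flox libraries 1 to 4. Labelled-Flox library 2 stood below the other 7, which intermixed. The log2 fold change was -0.07 ± 0.0461 (SE), with 95% limits of -0.17 and 0.03, and without labelled-Flox library 2 it was -0.03. Prkcz (ENSMUSG00000029053, chromosome 4, 155260129 to 155361361, minus strand), which encodes aPKC zeta, gave 3.33, 3.31, 3.74 and 3.29 CPM in libraries 1 to 4 of the WT group, against 3.49, 3.52, 3.96 and 3.88 CPM in labelled-Flox libraries 1 to 4. WT library 3 alone reached into the labelled-Flox range. The log2 fold change was 0.12 ± 0.12 (SE), with 95% limits of -0.14 and 0.38, from 65.6 to 86.4 expected counts per library.

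Crb2 (ENSMUSG00000035403, chromosome 2, 37776249 to 37799103, plus strand) encodes a transmembrane Crumbs protein of the apical membrane. It gave 4.12, 5.39, 3.91 and 4.39 CPM in libraries 1 to 4 of the WT group, against 4.15, 4.36, 5.27 and 4.65 CPM in labelled-Flox libraries 1 to 4, fully intermixed. Its log2 fold change of 0.05 (SE 0.132) had a 95% confidence interval of -0.24 to 0.33.

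**Figure D2:**
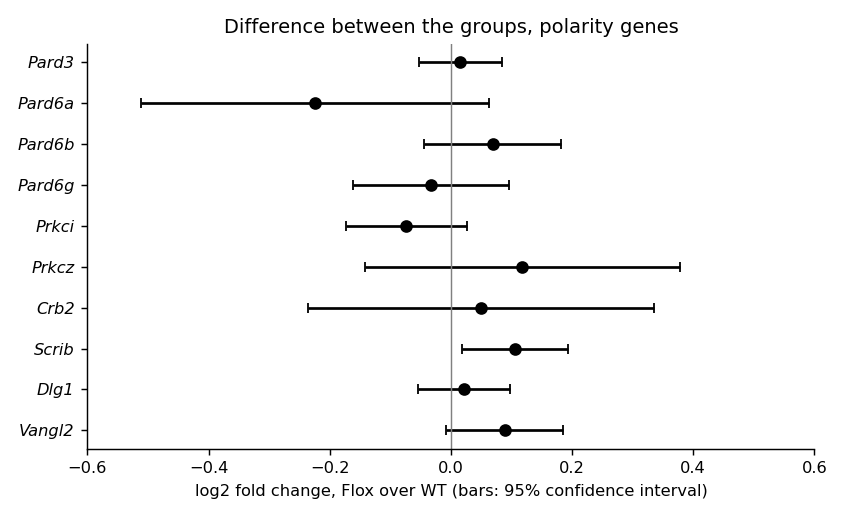
Log2 fold change of labelled-Flox over WT libraries for the 10 polarity genes, with 95% confidence intervals from edgeR's quasi-likelihood fit (4 libraries per group). All intervals but that of Scrib (0.02 to 0.19) include 0, and those of Pard6a, Prkcz and Crb2 are the widest.

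For the 7 genes at 19 CPM or more, the 95% limits lay between -11.3% (Prkci) and 14.3% (Scrib) as a change from the WT level. For Pard6a, Prkcz and Crb2, all under 10 CPM, they reached from -29.8% (Pard6a) to 29.9% (Prkcz). The median spread of log2 CPM between libraries of a group was 0.07 for the 10 genes and 0.09 for all tested genes. Their expected counts lay within 0.05 of a whole number in all 8 libraries for Pard3, Pard6a, Pard6b, Pard6g and Scrib. They lay further from one in 7 libraries for Prkcz, in 5 for Vangl2, in 4 for Prkci and in 3 each for Dlg1 and Crb2. Of the 10, only Crb2 shared exonic bases with another gene, 113 bases with Dennd1a on the opposite strand.

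Levels were compared between genes as CPM per kilobase of merged exons. Over all 8 libraries the order was Scrib (10.6 ± 0.601, SD, n = 8), Prkci (8.40 ± 0.442), Dlg1 (7.25 ± 0.233), Pard6g (6.55 ± 0.348), Pard6b (6.01 ± 0.265), Pard3 (4.65 ± 0.112), Pard6a (4.29 ± 0.682), Vangl2 (3.99 ± 0.187), Crb2 (0.676 ± 0.0807) and Prkcz (0.565 ± 0.0419). Scrib exceeded Prkci and Prkci exceeded Dlg1 in each of the 8 libraries, with ranges that did not overlap. The ranges of Dlg1 and Pard6g overlapped, as did those of Pard6g and Pard6b, of Pard3 and Pard6a, of Pard6a and Vangl2, and of Crb2 and Prkcz. Those of Pard6b and Pard3, and of Vangl2 and Crb2, did not. Scrib lay at the 71.7 percentile of level per kilobase among tested genes, and Prkcz at the 15 percentile.

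**Figure D3:**
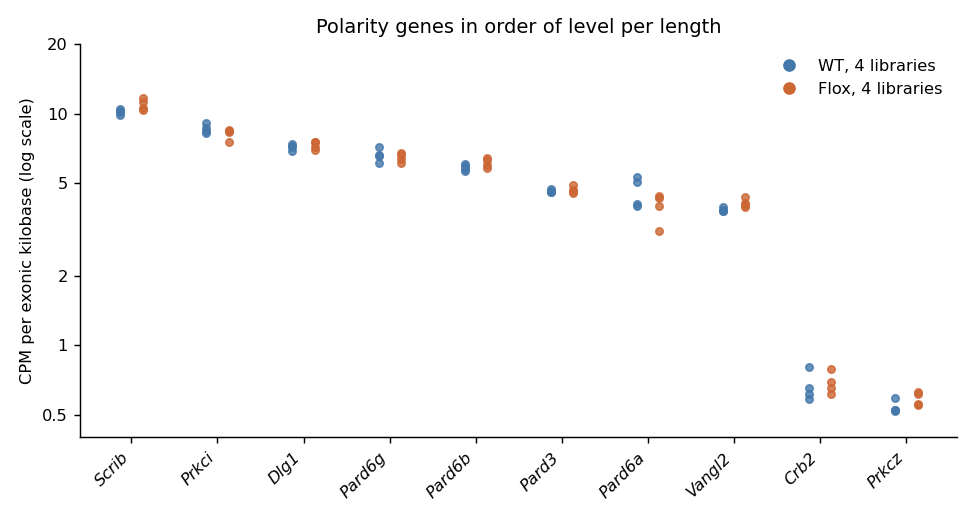
CPM per exonic kilobase, on a log axis, of the 10 polarity genes in order of their mean, with a point for each of 4 WT (blue) and 4 labelled-Flox (orange) libraries. Scrib to Vangl2 lie between 3.13 and 11.7, and Crb2 and Prkcz lie below 0.81.

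The merged exons include every annotated transcript, which lowers the value of genes with many long variants. Pard3 has 28 annotated transcripts and 14506 exonic bases, the most of the 10. With the length of the longest protein-coding transcript instead, chosen after seeing the data, Dlg1 was at 12.7, Scrib at 12.2, Pard3 at 11.6 and Prkci at 9.91 CPM per kilobase, so the order of the upper genes depended on the length used. Crb2 (0.711) and Prkcz (0.874) were the lowest under either length.

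Within families the shares of the summed level per kilobase were as follows. Prkci held 94.1% ± 0.376 of the aPKC level in WT and 93.3% ± 0.397 in labelled-Flox libraries (SD, n = 4). Pard6g, Pard6b and Pard6a held 38.8% ± 2.43, 34.3% ± 2.06 and 26.9% ± 3.06 of the PAR6 level in WT, and 39.1% ± 2.35, 37.1% ± 1.83 and 23.8% ± 3.10 in labelled-Flox libraries (SD, n = 4). Pard3 held 71.7% ± 1.33 in WT beside the related scaffold Pard3b, and 69.4% ± 1.02 in labelled-Flox libraries (SD, n = 4). Vangl2 held 41.1% ± 0.831 in WT beside Vangl1, and 41.5% ± 1.42 in labelled-Flox libraries (SD, n = 4), so Vangl1 was higher per exonic kilobase in both groups. Crb2 made up 86.6% ± 3.88 of the Crumbs level in WT and 85.8% ± 3.80 in labelled-Flox libraries (SD, n = 4). Crb1 held 4.06% and Crb3 9.30% in WT. These are rough values, as Crb1 had 4 to 18 and Crb3 1 to 4 expected counts per library. Dlg1 (37.3%) and Dlg5 (37.5%) had like shares of the DLG level in WT by merged exons, but per kilobase of the longest coding transcript Dlg1 was at 12.7 CPM and Dlg5 at 7.90 CPM.

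Whether the balance within such pairs differed between the groups was tested on the log2 ratio of CPM in each library, for 4 pairs. The log2 ratio of Prkci to Prkcz was 3.92, 3.82, 3.69 and 3.80 in WT libraries 1 to 4 and 3.75, 3.57, 3.55 and 3.58 in labelled-Flox libraries 1 to 4. The groups overlapped only through WT library 3 and labelled-Flox library 1. The mean difference was -0.19 (two-sided exact permutation p = 0.0571, adjusted 0.114 over the 4 ratios). The log2 ratio of Pard3 to Pard3b was 1.43, 1.38, 1.56 and 1.58 in WT libraries 1 to 4 and 1.23, 1.38, 1.32 and 1.36 in labelled-Flox libraries 1 to 4. WT library 2 and labelled-Flox library 2 were nearly equal and the others did not overlap, with a mean difference of -0.16 (exact permutation p = 0.0571, adjusted 0.114). The ratios of Vangl2 to Vangl1 (difference 0.02, exact permutation p = 0.743, adjusted 0.743) and of Pard6g to Pard6a (difference 0.19, exact permutation p = 0.343, adjusted 0.457) intermixed. The smallest p that 4 against 4 libraries can give is 0.0286, which becomes 0.114 after adjustment if only 1 ratio reaches it. A ratio could therefore pass 0.05 only if at least 3 of the 4 separated the groups fully, so this test says little about any of them. Within every library number the labelled-Flox ratio was lower for Prkci to Prkcz and higher for Pard6g to Pard6a. An exact sign-flip test on these pairs gave p = 0.125 for both, 0.25 for Pard3 to Pard3b and 0.875 for Vangl2 to Vangl1. The smallest p that 4 pairs can give is 0.125, so this test cannot decide either.

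**Figure D4:**
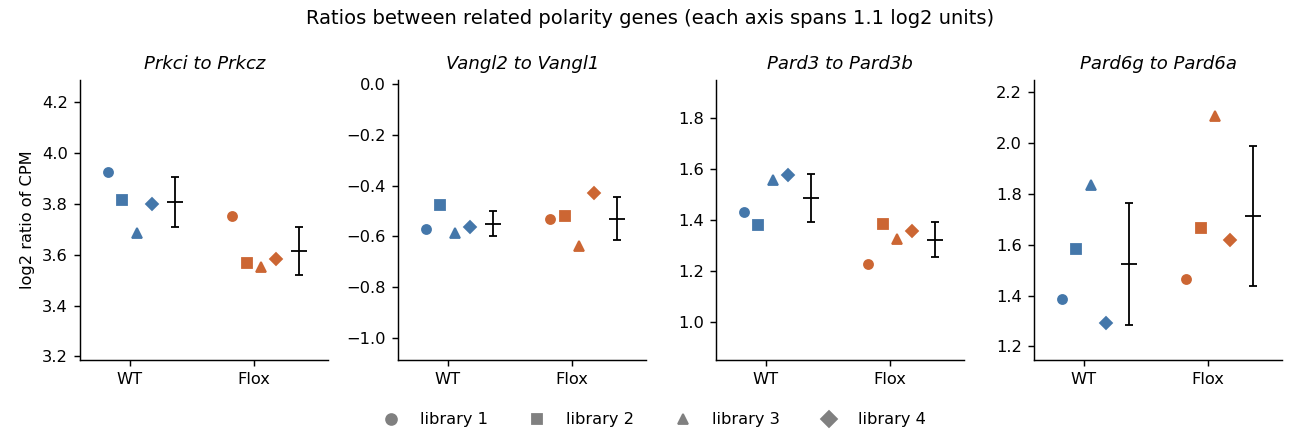
Log2 ratio of CPM between 4 pairs of related polarity genes in each WT (blue) and labelled-Flox (orange) library, with symbols for the library number and black bars for the mean and SD (n = 4). The ratios of Prkci to Prkcz and of Pard3 to Pard3b are lower in most labelled-Flox libraries, by 0.19 and 0.16 on average, with some overlap.

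A wider set of 74 polarity genes, listed by pathway, was then examined. Of these, 70 passed the filter and edgeR called 0 of them at an FDR of 0.05, as did the other tools. At an unadjusted p below 0.05 there were 8 of 70 (11.4%), near the 10.5% of all tested genes, 6 of them higher and 2 lower. The median log2 fold change of the 70 was 0.01, with 38 higher and 32 lower. With the Y-linked covariate only Llgl2 of the 8 kept an unadjusted p below that limit, at a log2 fold change of 0.14. All 8 kept their sign. Lin7c (0.10) and Lix1l (0.10), which are not among the 8, then came below the limit. Gipc1 also lost it with the correction for GC content and length (0.040). Stk11, Gipc1 and Fat3 lost it with DESeq2, and Stk11 and Gipc1 with no filter. Leaving out some single libraries took it from Stk11, Wnt11, Gipc1 and Fat3. Apart from the covariate fit, Pard3b, Jam2, Llgl2 and Dlg2 kept it throughout. The groups did not overlap for 7 of 70 genes, beside 6.05% of all tested genes, namely Stk11, Jam2, Llgl2, Dlg2, Arhgef7, Git1 and Vangl1. Crb3, Lin7b, Celsr3 and Fat2, with at most 13 expected counts in any library, were not tested.

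Among the 16 Par complex partners, 3 had an unadjusted p below 0.05. Pard3b averaged 24.0 ± 1.78 CPM over WT libraries and 27.2 ± 1.44 CPM over labelled-Flox libraries (SD, n = 4), a log2 change of 0.18 ± 0.0603 (SE, adjusted p = 0.298 in edgeR). It shares 583 exonic bases with the antisense gene Pard3bos1. Stk11, which encodes the kinase LKB1 that activates the PAR1 kinases, spanned 73.8 to 77.0 CPM over the WT libraries and 78.0 to 81.0 CPM over the labelled-Flox ones. The gap between the groups was narrow, and the log2 change was 0.07 ± 0.0291 (SE, adjusted p = 0.396 in edgeR). Jam2, a junctional adhesion molecule whose family binds PAR3, spanned 17.5 to 19.2 CPM over the WT libraries and 13.9 to 17.0 CPM over the labelled-Flox ones, a log2 change of -0.20 ± 0.0715 (SE, adjusted p = 0.32 in edgeR). JAM2 is also made by endothelial cells. Of 12 endothelial markers, 10 were lower, and their sum was 1620 to 1692 CPM in WT and 1524 to 1659 CPM in labelled-Flox libraries, and their part in the Jam2 difference was not tested. Cdc42, the GTPase that binds PAR6, had the highest level per kilobase of the list (125 ± 1.40 in WT and 123 ± 1.11 in labelled-Flox libraries, SD, n = 4).

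Of the 10 further Scribble complex genes, Llgl2 and Dlg2 had the smallest p of all 70. Llgl2, an LGL protein that aPKC phosphorylates, gave 23.8, 24.6, 23.3 and 22.9 CPM in libraries 1 to 4 of the WT group, against 26.0, 26.3, 28.4 and 26.1 CPM in labelled-Flox libraries 1 to 4. All labelled-Flox libraries lay above all WT libraries, a log2 change of 0.18 ± 0.0477 (SE, adjusted p = 0.144 in edgeR). Dlg2, a DLG scaffold best known from synapses, gave 17.3, 15.6, 17.9 and 20.03 CPM in libraries 1 to 4 of the WT group, against 14.7, 14.1, 14.8 and 15.4 CPM in labelled-Flox libraries 1 to 4. The separation was narrow, between WT library 2 and labelled-Flox library 4, and the log2 change was -0.27 ± 0.0759 (SE, adjusted p = 0.174 in edgeR). With the Y-linked covariate it was -0.13. Git1, which joins the Scribble partner ARHGEF7 in a complex, had the highest level per merged exonic kilobase of the list (22.4 ± 0.562 in WT and 21.6 ± 0.123 in labelled-Flox libraries, SD, n = 4). By the longest coding transcript Arhgef7 was higher, at 50.8 CPM per kilobase beside 30.4 for Git1.

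Of the 8 Crumbs complex genes and the 13 planar polarity core genes tested, 0 had an unadjusted p below 0.05 in edgeR's test. Their highest levels per kilobase were those of Lin7c, an adaptor of the Crumbs complex (14.1 ± 0.674 in WT and 14.7 ± 0.324 in labelled-Flox libraries, SD, n = 4), and Ptk7, a receptor-like pseudokinase (19.9 ± 0.568 and 19.3 ± 0.873). Of the 16 Wnt ligands, receptors and effectors, Wnt11, a ligand of the planar polarity pathway, was at 7.22 ± 0.662 and 8.61 ± 0.812 CPM (SD, n = 4), a log2 change of 0.26 ± 0.099 (SE, adjusted p = 0.364 in edgeR). All 364 bases of Gm8398 lie antisense within its exons. Gipc1, a PDZ adaptor and the highest of its list per merged exonic kilobase, had a log2 change of 0.08 ± 0.0331 (SE, adjusted p = 0.428 in edgeR). By the longest coding transcript Rhoa, a GTPase, was higher, at 153 CPM per kilobase beside 59.2 for Gipc1. Of the 7 Fat and Dachsous genes tested, the atypical cadherin Fat3 had an unadjusted p below 0.05, a log2 change of 0.18 ± 0.0786 (SE, adjusted p = 0.455 in edgeR), and Lix1l was the highest per kilobase (26.6 ± 1.04 and 27.4 ± 0.944, SD, n = 4).

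**Figure D5:**
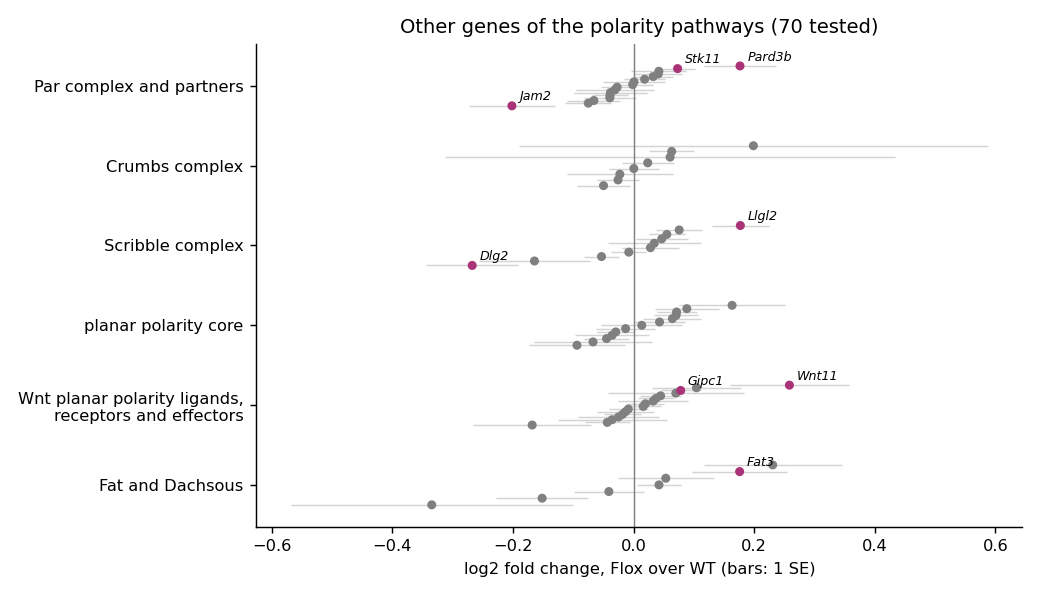
Log2 fold change of labelled-Flox over WT libraries for the 70 tested genes of the 6 polarity lists, with bars of 1 SE. Purple points with a name have an unadjusted p below 0.05 (8 genes), grey points do not, and 0 passed FDR below 0.05.

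Markers of other cell types were read beside these values. The epithelial markers, of cells in which these genes are best known, summed to 2.99 to 3.39 CPM in WT and 2.48 to 4.00 CPM in labelled-Flox libraries, with Esrp1 at 0 in all libraries and mean levels of Epcam of 0.167 and 0.131 CPM. Of 12 epicardial markers, 10 were slightly higher, and they summed to 246 to 260 CPM in WT and 256 to 294 CPM in labelled-Flox libraries. Of 8 smooth muscle and mural markers, 6 were lower (median log2 fold change -0.13). Their sum, 1929 to 2042 CPM in WT and 1998 to 2119 CPM in labelled-Flox libraries, was mostly Acta2, at 1308 and 1423 CPM on average, whereas Rgs5 was at 85.2 and 71.3 CPM and Myh11 at 7.31 and 5.49 CPM. Markers of ventricular cardiomyocytes summed to 34779 to 39525 and 34475 to 40444 CPM. In edgeR's test 0 markers of these lists passed FDR 0.05. At an unadjusted p below 0.05 there were 5 of 12 endothelial and 5 of 8 mural markers, 4 of each lower. There were also 2 of 12 epicardial markers, each higher, and 1 of 8 cardiomyocyte markers, which was lower. The share over all tested genes was 10.5%, and 49.4% of all tested genes were higher in labelled-Flox libraries. The part of such cells in the differences of Scrib, Vangl2 and Pard3b was not tested.

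Scrib had both the smallest p and the highest level per exonic kilobase of the 10. The genes whose log2 CPM followed it most closely over the 8 libraries were Gm4430 (Pearson's r of 0.968), Map3k2 (0.959) and Trak2 (0.952), the highest of 12856 genes compared. The 8 libraries share their groups and their scaling, and 23 genes had an r above 0.9.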

How the data were processed

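The deposited values are expected counts, estimated for each Ensembl gene by RSEM, which shares reads of ambiguous origin among genes. Of these values 15.2% lay more than 0.05 from a whole number. The submitters' processing notes name RSEM 1.3.1, cutadapt and build GRCm38, and the table's name gives Ensembl release 91. The aligner and the strand setting are not given in the sources used here.

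Expected counts were rounded. Symbols, positions and exonic lengths came from GENCODE M21 (GRCm38), which matched 53360 of 53465 identifiers. Counts were filtered with filterByExpr, scaled by TMM and compared with edgeR 4.0.16 (glmQLFit, glmQLFTest, group as the only term, two-sided, Benjamini-Hochberg over 15388 genes, FDR 0.05) in R 4.3.3. CPM use TMM-scaled library sizes. SE was derived from the F statistic, and 95% intervals from its degrees of freedom. Ratios were compared with exact permutation tests in scipy 1.17.1. The fits were tested on simulated data. The labels do not say whether replicates are separate embryos, so p-values measure the spread between these libraries. No library was a copy of another (lowest chi-square per degree of freedom over pairs 2.98).

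The members, gene lists and alternatives were chosen with earlier results of these data known. Genes named were the 10 members, listed pathway genes with an unadjusted p below 0.05, the highest per kilobase of each list, and the 3 genes most like the member with the smallest p and the member with the highest level. Genes whose groups did not overlap were named after their values were seen. Alternatives were scaling by RLE, by the upper quartile or by library totals, DESeq2 1.42.0, limma voom 3.58.1, edgeR's likelihood ratio test, dropping the filter, a filter of 1 CPM in 4 libraries, each library left out, a replicate block, a Y-linked covariate, a GC and length correction (lowess span 0.3), overlapping genes summed, and FDR 0.01 and 0.1.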

Additional observations from a re-analysis of the deposited data

Results flagged for a closer look

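Of 60 groups of 4 values examined, 5 held a library far from the other 3 of its group by Dixon's criterion, where chance gives about 3. Prkci was at 41.82 CPM in labelled-Flox library 2, against 46.45 to 47.07 CPM in the other 3. For Prkcz, WT library 3 reached 3.737 CPM and the others 3.294 to 3.33 CPM. The log2 ratio of Prkci to Prkcz was 3.754 in labelled-Flox library 1, against 3.551 to 3.583. Llgl2 was at 28.45 CPM in labelled-Flox library 3, against 26.04 to 26.26 CPM, and Ptk7 was at 110.9 CPM in labelled-Flox library 4, against 101.2 to 102.4 CPM. The cause of these values was not tested.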

How the results depend on the processing

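The number of polarity genes past FDR 0.05 was 0 of 10, and of the wider set 0 of 70, in each of the 20 alternative fits. In the main fit it was also 0 at an FDR of 0.01 or 0.1. Among the named genes of the wider set the lowest FDR was 0.063, for Dlg2 with no filter. The likelihood ratio test gave 0.088 for Llgl2 and 0.093 for Dlg2. In 200 alternative values of the 10 genes, the lowest FDR was 0.245 and the largest absolute log2 fold change 0.285, and 6 changed sign, all near 0. Leaving out each library in turn gave log2 fold changes of -0.0053 (without labelled-Flox library 4) to 0.032 for Pard3, of -0.069 to 0.0089 (without WT library 3) for Pard6g and of -0.024 (without labelled-Flox library 3) to 0.15 for Crb2, which was also -0.0075 without WT library 3. With the Y-linked covariate they were 0.012 for Pard6g, -0.037 for Crb2 and 0.00055 for Ptk7. The ratio of Vangl2 to Vangl1 differed by -0.013 (without labelled-Flox library 4) to 0.056. Genes of the 10 whose groups did not overlap numbered 0 to 2 when a library was left out: Prkcz and Scrib without WT library 3 (9.16% of all tested genes), Scrib without labelled-Flox library 2 (9.98%), and Vangl2 without WT library 2 (9.79%) or labelled-Flox library 3 (8.49%). With 3 against 4 libraries the smallest exact permutation p of a ratio is 0.0571. The count of all genes past FDR 0.05, 81, was 338 with no filter, 242 by the likelihood ratio test, 198 by DESeq2, 16 with the Y-linked covariate, 3 at FDR 0.01 and 190 at FDR 0.1, and 11 (without labelled-Flox library 3) to 142 (without labelled-Flox library 4) with a library left out. Deviations of same-numbered libraries correlated weakly, at 0.0447 to 0.121, but each more than any pair of unlike number (-0.0877 to 0.0195). What libraries of a number share is not given in the sources used here, and the main fit did not take them as pairs. A replicate block gave 93 genes past FDR 0.05, 0 of them among the 10 or the 70. Within every library number Pard6a was lower, and Scrib, Vangl2 and Prkcz were higher, in the labelled-Flox library. The other members went both ways. With the block, the unadjusted p in edgeR's test was 0.016 for Scrib, 0.094 for Vangl2 and 0.377 for Prkcz. The causes were not tested. The 95% limits were widest for Pard6a, Prkcz and Crb2, the 3 lowest of the 10 in CPM, and depth was not tested apart from the spread between libraries.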

Other observations

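Other polarity families were also led by particular members, in shares of the summed CPM per exonic kilobase. Llgl1 held 78.9% of the LGL level in WT and 77.4% in labelled-Flox libraries, beside Llgl2. Celsr1, an atypical cadherin of the planar polarity core, held 79.5% and 81.3% of the Celsr level, and Dvl3, a Dishevelled adaptor, 42.7% and 43.8% of the Dvl level. These shares were not tested. Fibroblast markers summed to 5623 to 6617 CPM in WT and 5393 to 6539 CPM in labelled-Flox libraries. Of the 8 fibroblast markers, 7 were lower (median log2 fold change -0.10), 2 of them at an unadjusted p below 0.05 in edgeR's test. Macrophage markers summed to 82.3 to 112 CPM in WT and 91.7 to 129 CPM in labelled-Flox libraries. Neuron and Schwann cell markers summed to 22.3 to 26.0 and 24.7 to 28.4 CPM, mostly Erbb3, at 15.98 and 17.32 CPM on average. Of the 5 such markers tested, 4 were higher and 1 was lower. At an unadjusted p below 0.05 in edgeR's test there was 1, which was lower. Stmn2 was at 1.51 CPM on average in WT and 0.991 CPM in labelled-Flox libraries. The part of such cells in the Dlg2 difference was not tested. Erythroid markers summed to 2215 to 4876 and 2969 to 5009 CPM.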
